A study of Mus musculus with 8 samples.

Results

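The genes described here are 9 genes of the transforming growth factor beta (TGF-beta) pathway: the ligands Tgfb1, Tgfb2 and Tgfb3, the receptors Tgfbr1 and Tgfbr2, the signal transducer Smad3, its inhibitor Smad7, the latency protein Ltbp1 and the induced matrix protein Tgfbi. They were chosen by name, and each of the 9 was found once among the 15948 genes measured in mouse kidney. The 8 kidney samples come from a study of Arhgef11, blood pressure and kidney injury. They carry the labels Sglt2Cre_DOCA (5 samples, called controls below) and Arhgef11Sglt2_DOCA (3 samples). By its title the study removed Arhgef11 systemically or in proximal tubule cells, and Sglt2, a glucose transporter, is made in that segment. The labels do not spell out the alleles, nor the age or sex of the animals. DOCA, in hypertension research, stands for deoxycorticosterone acetate, a mineralocorticoid, and both groups carry it in their labels. An untreated or Cre-negative group was not analysed here. The labels do not say that each sample is a separate animal. The p-values set group differences against the variation between these samples, which may be partly technical. They may therefore not extend to differences between animals.

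TGF-beta is secreted in a latent complex, in which its own propeptide holds it inactive and a latent TGF-beta binding protein such as Ltbp1 ties it to the extracellular matrix. Once released, the ligand binds the type II receptor Tgfbr2, which recruits and phosphorylates the type I receptor Tgfbr1. Tgfbr1 phosphorylates Smad3 and its relative Smad2, which enter the nucleus and switch on genes such as Tgfbi and the inhibitor Smad7. In the kidney the pathway is best known for driving matrix deposition by fibroblasts and for its part in the response of injured tubule cells.

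The values below are normalized counts, obtained by inverting the variance-stabilized log2 scale of the deposited table. Folds are ratios of group means of normalized counts. Log2 differences, their intervals and the tests are on the deposited scale, which compresses differences of genes with low counts. Estimated depth was 33000000 to 59500000 reads in the controls and 51300000 to 57900000 reads in the Arhgef11Sglt2_DOCA libraries. The 9 proximal tubule markers summed to 418472 to 470740 normalized counts in the controls and to 242790 to 368435 in the Arhgef11Sglt2_DOCA libraries. The 6 markers of the thick ascending limb summed to 324981 to 372799 in the controls and to 249309 to 317911 in the Arhgef11Sglt2_DOCA libraries, again without overlap. The proximal tubule sum leaned on Slc34a1 and Lrp2 (control means 177205 and 113954), and its members were not all separated. Arhgef11Sglt2_DOCA replicate 2 lay above every control for Slc5a12 (24377 against 13088 to 16606) and Hnf4a (30416 against 26688 to 29358). Log2 differences in that list ran from -2.49 for Slc7a13 to -0.18 for Hnf4a. The targeted gene did not check the labels. Whole-gene Arhgef11 had 3679.5 ± 162 normalized counts in the controls (SD, n = 5) and 3587 ± 564 in the Arhgef11Sglt2_DOCA libraries (SD, n = 3), a log2 difference of -0.04 (95% interval -0.24 to 0.16, limma adjusted p = 0.834). An exact permutation test over 56 arrangements (two-sided) gave p = 0.732, with 0.0179 the smallest value possible. Replicates 1, 2 and 3 of Arhgef11Sglt2_DOCA had 2935, 3919 and 3905, and the controls had 3629, 3479, 3682, 3680 and 3928. Replicate 1 thus lay below every control and the other replicates within their range. A loss limited to proximal tubule cells, or to part of the transcript, may not show in this value. The share of kidney Arhgef11 that comes from those cells was not measured. Slc5a2, the Sglt2 gene itself, had a log2 difference of -0.38 (limma adjusted p = 0.214). In all values below, fewer cells of a type and less RNA per cell cannot be told apart.

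The comparison asked whether any of the 9 genes differed between the groups. In limma, 0 of 9 had an adjusted p under 0.05, beside 354 of the 15948 genes (2.22%), of which 100 (0.627%) were higher and 254 (1.59%) lower in the Arhgef11Sglt2_DOCA libraries. With libraries scaled to equal totals the split over all genes was 168 higher and 225 lower. The count of the 9 genes was also 0 at an adjusted p of 0.10 (6.51% of all genes), on the log2(normalized count + 1) scale (2.46%) and without Arhgef11Sglt2_DOCA replicate 1 (8.36%). Tgfbr1 alone of the 9 had an unadjusted limma p under 0.05, which 21.1% of all genes had. It was also the only 1 of the 9 whose groups did not overlap, with every Arhgef11Sglt2_DOCA library above every control, as for 6.2% of all genes; 0 of the 9 lay wholly below the controls, as 8.14% of all genes did. Tubule markers differed between the groups at the same time, as given above: 3 of the 9 proximal tubule markers and 1 of the 6 thick ascending limb markers, Cldn10, were lower at an adjusted limma p under 0.05. The other thick ascending limb markers did not pass and had log2 differences from -0.94 for Egf to 0.02 for Umod. The part of these markers in the values of the 9 genes was not tested. The 9 log2 differences ran from -0.31 for Ltbp1 to 0.32 for Tgfbr1, with a median of 0.09, beside a median of -0.0070 over all genes. With 1 library left out in turn, the median over the 9 genes ran from -0.0026 to 0.13. Tgfb2, Tgfb3 and Ltbp1 had negative differences. Tgfb1, Tgfbi, both receptors, Smad3 and Smad7 had positive ones.

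**Figure D1:**
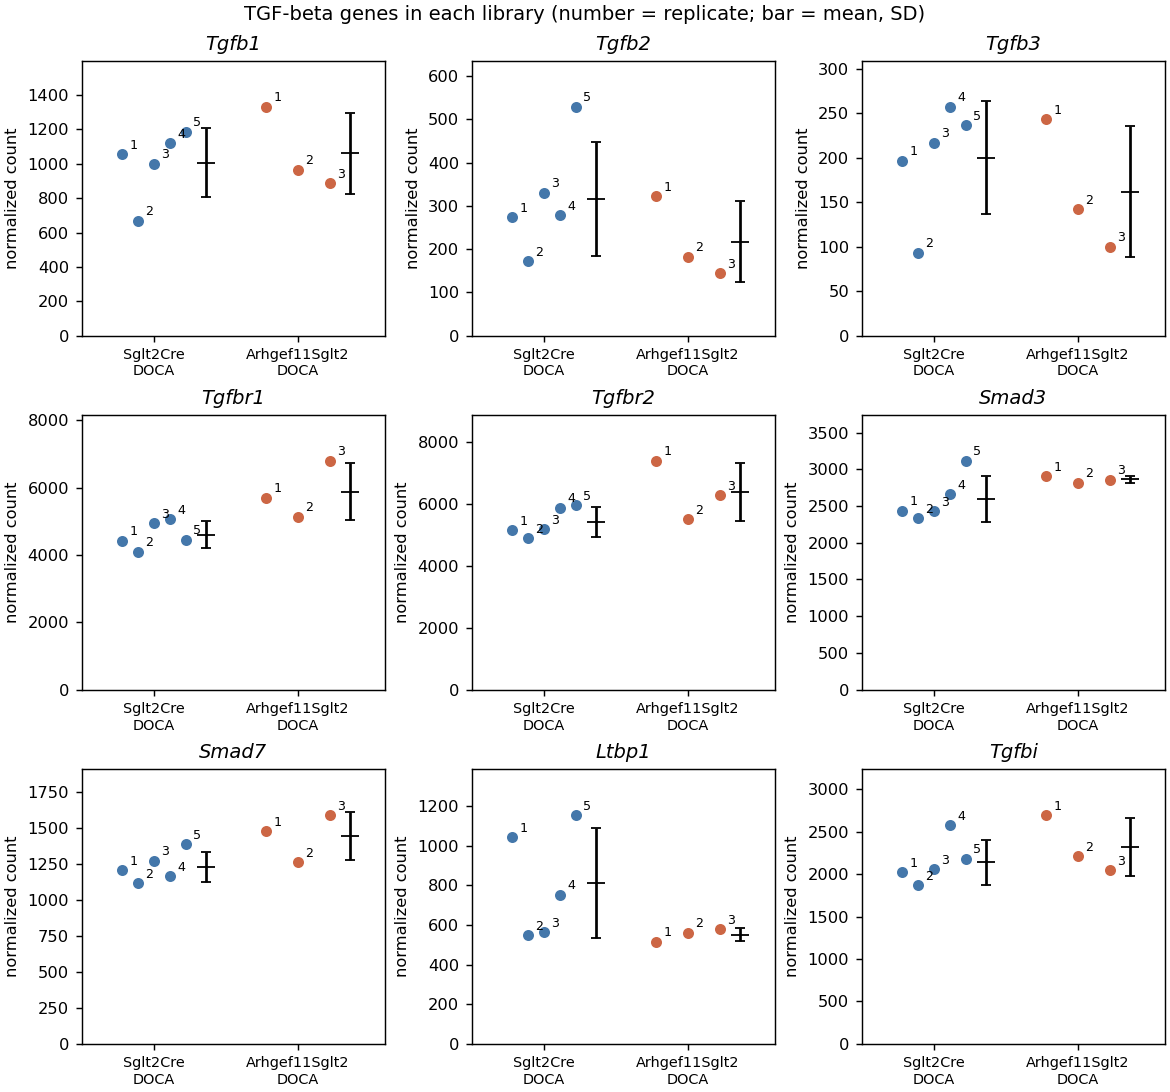
Normalized counts (y axes, from 0) of the 9 genes in each library, with Sglt2Cre_DOCA in blue and Arhgef11Sglt2_DOCA in orange; numbers are replicates and black bars are the group mean and SD. For Tgfbr1, and for no other gene shown, all 3 Arhgef11Sglt2_DOCA libraries (5132 to 6792) lie above all 5 controls (4093 to 5059).

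Tgfb1 (ENSMUSG00000002603), the ligand most studied in kidney fibrosis, had 1054, 668, 1001, 1119 and 1186 normalized counts in control replicates 1 to 5. Replicates 1, 2 and 3 of Arhgef11Sglt2_DOCA had 1331, 965 and 888. The highest library was thus Arhgef11Sglt2_DOCA replicate 1 and the lowest control replicate 2, and the groups overlapped. The means were 1006 ± 201 (SD, n = 5) and 1062 ± 237 (SD, n = 3), a log2 difference of 0.06 (SE 0.13, 95% interval -0.24 to 0.36, limma adjusted p = 0.852). The sign of this difference rested on single libraries: it was -0.04 without control replicate 2 and -0.07 without Arhgef11Sglt2_DOCA replicate 1.

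Tgfb2 (ENSMUSG00000039239), a ligand that needs the co-receptor Tgfbr3 for tight binding to Tgfbr2, had 274, 173, 330.1, 278 and 529 normalized counts in the controls, in replicate order. The Arhgef11Sglt2_DOCA libraries had 323, 183 and 144. Replicate 3 of that group was the lowest of all libraries and control replicate 5 the highest. The means were 317 ± 132 and 217 ± 93.7, 1.46-fold lower in Arhgef11Sglt2_DOCA, with a log2 difference of -0.23 (SE 0.16, 95% interval -0.58 to 0.12, limma adjusted p = 0.430). As log2(normalized count + 1), which compresses low counts less, the difference was -0.54 (limma adjusted p = 0.411). It was -0.13 without control replicate 5 or without Arhgef11Sglt2_DOCA replicate 3, and -0.37 without Arhgef11Sglt2_DOCA replicate 1.

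Tgfb3 (ENSMUSG00000021253), the third ligand, was the least counted of the 9 genes. The controls had 197, 93.1, 217, 257 and 237 normalized counts and the Arhgef11Sglt2_DOCA libraries 243, 142 and 99.8. Control replicate 2 and Arhgef11Sglt2_DOCA replicate 3 were the low libraries, so each group held both high and low values. The means were 200.0 ± 63.8 and 162 ± 73.6, a log2 difference of -0.12 (SE 0.13, 95% interval -0.41 to 0.17, limma adjusted p = 0.644). As log2(normalized count + 1) it was -0.32, and without Arhgef11Sglt2_DOCA replicate 3 it was -0.016. The difference was -0.24 without Arhgef11Sglt2_DOCA replicate 1 and -0.20 without control replicate 2.

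Among the receptors, Tgfbr1 (ENSMUSG00000007613), the type I receptor kinase, had 4428, 4093, 4945, 5059 and 4452 normalized counts in the controls. The Arhgef11Sglt2_DOCA libraries had 5698, 5132 and 6792. All 3 lay above the controls, with replicate 2 only slightly above control replicate 4. The means were 4595 ± 399.6 (SD, n = 5) and 5874 ± 844 (SD, n = 3), a ratio of 1.28, with a log2 difference of 0.32 (SE 0.10, 95% interval 0.10 to 0.54). The unadjusted limma p was 0.00922 and the adjusted p 0.113. Over the other settings tried, the adjusted p ran from 0.0769 to 0.431, and Tgfbr1 passed 0.05 in none of them. Without Arhgef11Sglt2_DOCA replicate 3 the difference was 0.22.

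Tgfbr2 (ENSMUSG00000032440), the type II receptor that binds the ligand, had 5146, 4888, 5179, 5879 and 5953 normalized counts in the controls and 7385, 5511 and 6276 in the Arhgef11Sglt2_DOCA libraries. Replicates 1 and 3 of Arhgef11Sglt2_DOCA lay above all controls, and replicate 2 lay within their range. The means were 5409 ± 477 and 6391 ± 943, a ratio of 1.18, with a log2 difference of 0.22 (SE 0.10, 95% interval -0.0093 to 0.44, limma adjusted p = 0.256). Without Arhgef11Sglt2_DOCA replicate 1 the difference was 0.11.

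The promoter windows of both receptor genes are shown because they were the members with the largest positive differences, and that of Tgfb1 because it stood out among members by its covariation with Tgfb3, given below. A RefSeq table on GRCm38.p6, a build other than the GRCm39 named for the expression values, holds such windows for 7 of the 9 genes once 1 chromosome is left aside. Smad7 and Tgfb3 are the genes without a window here, so their promoters were not searched. Each is the 250 bases before an annotated start, read in the direction of the gene. Tgfbr1 has 2 annotated starts in the table, and the window of the more upstream one is printed: Tgfbr1 at chr4:47352972-47353221 (+ strand), Tgfbr2 at chr9:116175364-116175613 (- strand) and Tgfb1 at chr7:25686752-25687001 (+ strand). Capitals mark matches, on either strand, to GGGCGG, the GC box bound by Sp1-type factors, and to CAGAC, which holds the core SMAD element; the palindrome GTCTAGAC was searched too.
Tgfbr1: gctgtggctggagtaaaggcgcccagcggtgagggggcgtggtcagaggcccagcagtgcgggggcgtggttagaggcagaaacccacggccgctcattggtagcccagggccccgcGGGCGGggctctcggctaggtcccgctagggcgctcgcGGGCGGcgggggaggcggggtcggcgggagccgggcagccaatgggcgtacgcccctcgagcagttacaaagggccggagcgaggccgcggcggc
Tgfbr2: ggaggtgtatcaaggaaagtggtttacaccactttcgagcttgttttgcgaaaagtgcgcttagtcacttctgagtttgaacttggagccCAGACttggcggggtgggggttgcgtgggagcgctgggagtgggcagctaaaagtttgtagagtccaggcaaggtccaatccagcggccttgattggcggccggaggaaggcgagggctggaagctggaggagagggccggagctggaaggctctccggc
Tgfb1: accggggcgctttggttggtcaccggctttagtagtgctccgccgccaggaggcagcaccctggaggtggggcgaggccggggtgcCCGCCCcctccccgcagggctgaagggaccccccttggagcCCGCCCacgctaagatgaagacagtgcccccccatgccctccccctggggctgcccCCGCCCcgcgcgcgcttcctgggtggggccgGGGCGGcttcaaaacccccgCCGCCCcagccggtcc
The Tgfbr1 window held 2 GC boxes and no CAGAC, the Tgfbr2 window no GC box and 1 CAGAC, and the Tgfb1 window 5 GC boxes and no CAGAC. The window of the other Tgfbr1 start, at chr4:47385966-47386215, differed from the printed one, with no GC box, 1 CAGAC and a G and C content of 52.8%; which start was used in these kidneys was not measured. None of these windows held GTCTAGAC. Of all 32851 windows of this length in the table, with no chromosome left aside, 32.7% held a GC box, 42.2% held CAGAC and 0.167% held GTCTAGAC. The G and C content was 74.8% for the printed Tgfbr1 window, 58.4% for Tgfbr2 and 75.2% for Tgfb1, beside a median of 52.4% over all windows. These matches describe letters only, and no binding was measured.

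Smad3 (ENSMUSG00000032402), the transcription factor activated by Tgfbr1, had 2437, 2333, 2431, 2661 and 3114 normalized counts in the controls and 2909, 2815 and 2860.1 in the Arhgef11Sglt2_DOCA libraries. The 3 Arhgef11Sglt2_DOCA values lay above 4 of the 5 controls and below control replicate 5. The means were 2595 ± 314 and 2862 ± 47.1, a log2 difference of 0.12 (SE 0.08, 95% interval -0.06 to 0.31, limma adjusted p = 0.433). The coefficient of variation was 12.1% in the controls and 1.64% in the Arhgef11Sglt2_DOCA libraries, a contrast in spread that was not tested.

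Smad7 (ENSMUSG00000025880), induced by TGF-beta and a brake on its receptors, had 1208, 1119, 1275, 1168 and 1389 normalized counts in the controls and 1481, 1263 and 1593 in the Arhgef11Sglt2_DOCA libraries. As with Tgfbr2, replicates 1 and 3 of Arhgef11Sglt2_DOCA lay above all controls and replicate 2 did not. The means were 1232 ± 105 and 1445 ± 168, a ratio of 1.17, with a log2 difference of 0.17 (SE 0.08, 95% interval -0.0085 to 0.35, limma adjusted p = 0.260).

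Ltbp1 (ENSMUSG00000001870), which anchors the latent complex in the matrix, had 1044, 548, 565, 752 and 1156 normalized counts in the controls and 515, 562 and 579 in the Arhgef11Sglt2_DOCA libraries. The controls split widely: replicates 2 and 3 were at the level of the Arhgef11Sglt2_DOCA libraries, and replicates 1 and 5 were far above it. The means were 813 ± 277 and 552 ± 32.8, 1.47-fold lower in Arhgef11Sglt2_DOCA, with a log2 difference of -0.31 (SE 0.16, 95% interval -0.66 to 0.04, limma adjusted p = 0.289). As log2(normalized count + 1) it was -0.49 (limma adjusted p = 0.281). The coefficient of variation was 34.1% in the controls and 5.94% in the Arhgef11Sglt2_DOCA libraries.

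Tgfbi (ENSMUSG00000035493), a secreted matrix protein named for its induction by TGF-beta, had 2022, 1872, 2059.8, 2575 and 2181 normalized counts in the controls and 2698, 2209 and 2048 in the Arhgef11Sglt2_DOCA libraries. The groups overlapped, with the highest value in Arhgef11Sglt2_DOCA replicate 1. The means were 2142 ± 266 and 2318 ± 339, a log2 difference of 0.09 (SE 0.10, 95% interval -0.13 to 0.32, limma adjusted p = 0.642). Without Arhgef11Sglt2_DOCA replicate 1 it was -0.0026.

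**Figure D2:**
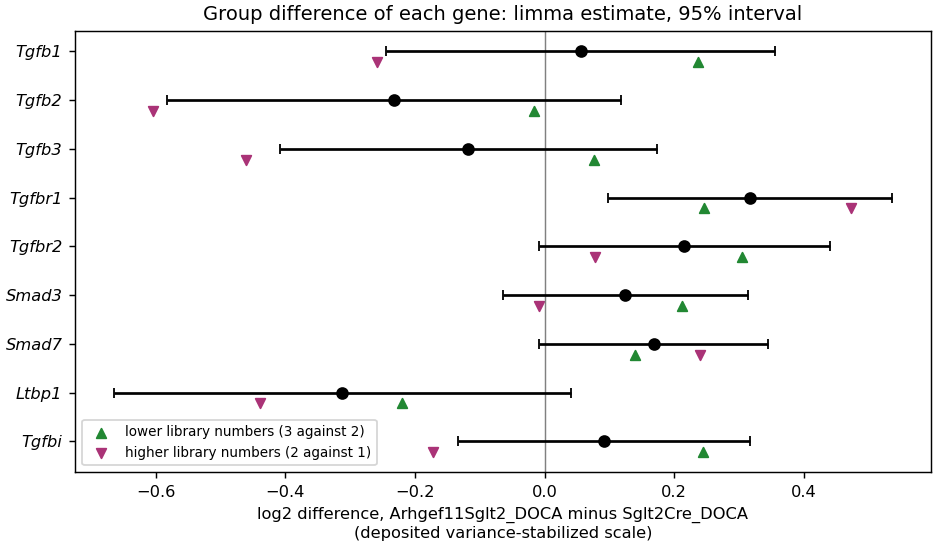
Log2 difference of each gene (x axis, Arhgef11Sglt2_DOCA minus Sglt2Cre_DOCA, deposited scale), with black points for the limma estimate over all 8 libraries and bars for its 95% interval; triangles are the differences within the lower and the higher library numbers. The Tgfbr1 interval (0.10 to 0.54) alone does not cross 0, and the triangles of Tgfb1, Tgfb3, Smad3 and Tgfbi lie on opposite sides of 0.

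Levels were compared between genes per kilobase of annotated exon, with exons of the GENCODE M21 basic set joined, since longer transcripts yield more counts; which isoforms were present was not measured. On that scale Tgfb1 was the leading ligand in every library, at 307 to 545 normalized counts per kilobase in the controls and 409 to 612 in the Arhgef11Sglt2_DOCA libraries. Tgfb2 reached 33.2 to 102 in the controls and 27.8 to 62.0 in the Arhgef11Sglt2_DOCA libraries, and Tgfb3 27.5 to 76.0 and 29.5 to 71.8, so the levels of these ligands overlapped each other. The receptors were counted above every ligand library by library. Tgfbr1 had 638 to 789 per kilobase in the controls and 800.1 to 1059 in the Arhgef11Sglt2_DOCA libraries, and Tgfbr2 had 597 to 727 and 673 to 902. Tgfbi (689.9 to 949 in the controls) overlapped the receptors. Smad3 (458 to 612), Smad7 (256 to 317) and Ltbp1 (79.4 to 168) were below both receptors in every library, in that order. The control range of Smad3 still overlapped that of Tgfbr2.

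The library names carry numbers that fall in 2 ranges, a lower one (control replicates 1, 2 and 3 and Arhgef11Sglt2_DOCA replicates 1 and 2) and a higher one (control replicates 4 and 5 and Arhgef11Sglt2_DOCA replicate 3). The labels' protocol names 2 numbered studies as the source of the kidneys, without saying which sample is from which, so these ranges are only number ranges. Within them, Tgfbr1 had log2 differences of 0.25 in the lower range and 0.47 in the higher. Smad7 had 0.14 and 0.24, and Tgfbr2 0.30 and 0.08, each positive in both. Ltbp1 was negative in both, at -0.22 and -0.44, as was Tgfb2, at -0.017 and -0.60. Tgfb1 had 0.24 in the lower range and -0.26 in the higher, Tgfb3 0.08 and -0.46, Tgfbi 0.24 and -0.17, and Smad3 0.21 and -0.0085. The higher range holds 1 Arhgef11Sglt2_DOCA library, so these values have no test. With the number range as a block in limma, Tgfbr1 had an adjusted p of 0.0785 and 0 of the 9 genes passed 0.05.

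Over the 8 libraries, 36 pairs among the 9 genes were compared. Tgfb1 and Tgfb3 rose and fell together, with Pearson's r = 0.88 (two-sided exact permutation p = 0.00057, Benjamini-Hochberg adjusted p = 0.0205 over the 36 pairs) and Spearman's rho = 0.90 (exact permutation p = 0.00456, adjusted p = 0.130). Without the 2 libraries farthest from the median of Tgfb1, control replicate 2 and Arhgef11Sglt2_DOCA replicate 1, r was 0.89, and for deviations from each group's own mean it was 0.97. The number ranges hold too few libraries for an r of their own. No other pair passed adjustment: 8 of the 36 had an unadjusted permutation p under 0.05 for r. The 2 receptors had r = 0.68 (exact permutation p = 0.0640, adjusted p = 0.192), with rho = 0.81 (exact permutation p = 0.0218, adjusted p = 0.168) and r = 0.68 without the 2 libraries farthest from the median of Tgfbr1 and 0.38 about group means. Points of each pair share their library, and with it tissue sampling and scaling.

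**Figure D3:**
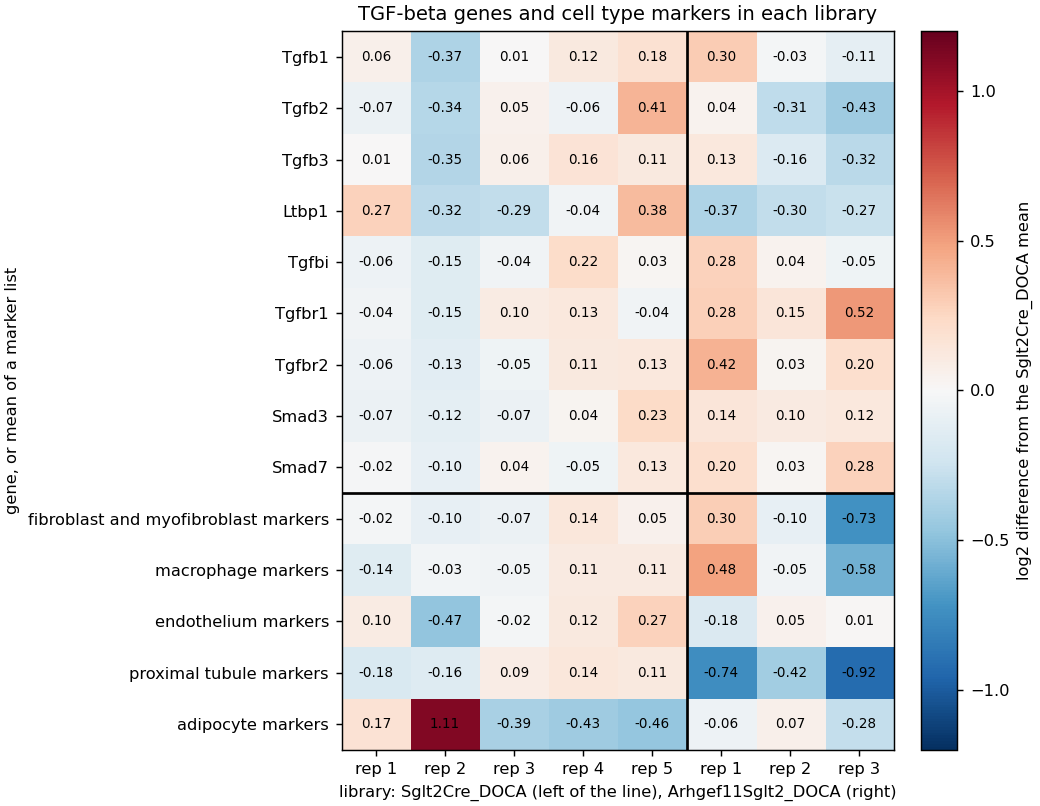
Log2 difference of each library (columns) from the control mean, for the 9 genes and for the mean of 5 marker lists (rows), on a blue to red scale with the value in each cell. Among the controls, the ligands are lowest in replicate 2 (Tgfb1 -0.37, Tgfb3 -0.35), where adipocyte markers stand at 1.11 and endothelial markers at -0.47, and Arhgef11Sglt2_DOCA replicates 1 and 3 differ in fibroblast (0.30 and -0.73) and macrophage (0.48 and -0.58) markers.

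Levels of markers of other cell types are given beside the ligands, library by library. The 3 ligands and Tgfbi were each highest in replicate 1 and lowest in replicate 3 among the Arhgef11Sglt2_DOCA libraries. The 9 measured fibroblast markers summed to 61940, 39560 and 19530 normalized counts in replicates 1, 2 and 3 of that group and to 39043 to 49546 in the controls. The 9 macrophage markers summed to 24210, 14414 and 8195 there, and to 12932 to 16873 in the controls. The macrophage sum leaned on Lyz2 (7615, 3724 and 1789 in replicates 1, 2 and 3). Csf1r (2834, 2859 and 1714) was highest in replicate 2, and Cd68 (719, 342 and 432) was lowest there. The fibroblast sum leaned on collagen genes: Col3a1 alone had 22543, 12302 and 3757 in Arhgef11Sglt2_DOCA replicates 1, 2 and 3. Over the same libraries Dcn (3275, 3039 and 2425) and Pdgfrb (4792, 3735 and 3418) fell less, and Pdgfra (2760, 3568 and 2708) was highest in replicate 2. The fibroblast markers Col1a1, Col1a2, Col3a1, Acta2 and Postn are also in the list of TGF-beta induced genes below. No fibroblast or macrophage marker passed between the groups, and each had at least 1 count in every library. The endothelial markers had another order, with their lowest sum of that group in replicate 1, and so did Tgfbr1, which was highest in replicate 3. Within the endothelial list, Emcn, Ehd3 and Tek were lowest in replicate 3 instead. The sums of T and NK lymphocyte markers (393, 233 and 228) and of platelet and megakaryocyte markers (226, 210 and 170) also fell from replicate 1 to replicate 3. The share of all genes with this order was not counted.

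Control replicate 2 was the lowest control for all 9 genes. It was also the lowest control for other genes, among them Smad4, Bmpr2 and Ccn2, and the highest for Kcp. The share of all genes with their lowest control there was not counted. In control replicate 2, the 9 endothelial markers summed to 14149 normalized counts, against 21069 to 27022 in the other controls and 18451 to 22796 in the Arhgef11Sglt2_DOCA libraries. The 5 adipocyte markers summed to 7941 there, against 2366 to 3720 in the other controls and 2989 to 3324 in the Arhgef11Sglt2_DOCA libraries; 4 of these markers were under 1 count in some library. Ucp1, the defining gene of brown fat, had 2352 normalized counts in control replicate 2 and was at 0 in control replicates 3 and 5. The 7 B and plasma cell markers, of which 2 passed, summed to 2907 to 12129 in the controls and to 763 to 2825 in the Arhgef11Sglt2_DOCA libraries. The part of these markers in the values of the 9 genes was not tested. Without control replicate 2, 0 of the 9 genes passed in limma, and with Arhgef11Sglt2_DOCA replicate 3 left out as well, again 0 passed, with 81 calls over all genes.

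**Figure D4:**
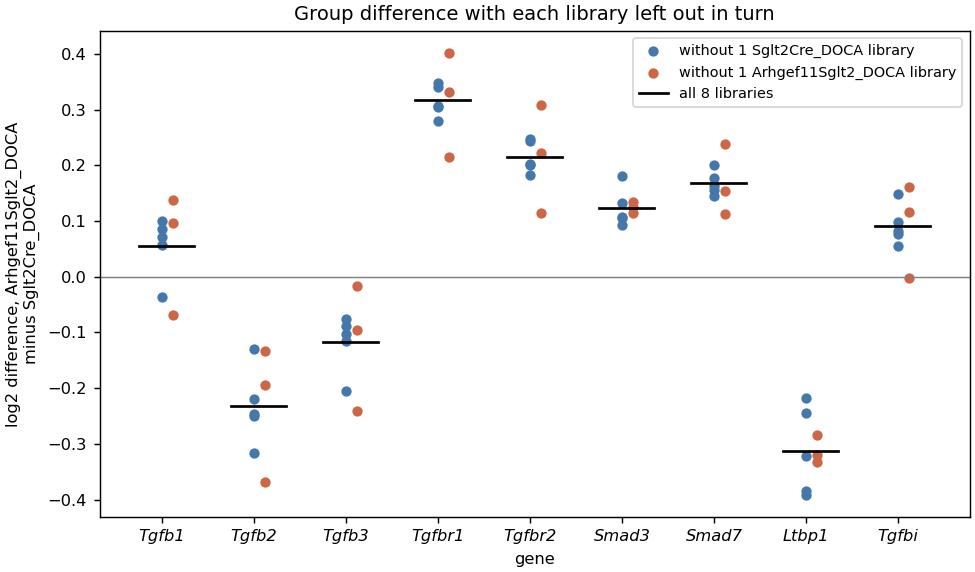
Log2 difference (y axis, Arhgef11Sglt2_DOCA minus Sglt2Cre_DOCA) of each gene (x axis) with all 8 libraries (black line) and with each library left out in turn (points, blue for a control and orange for an Arhgef11Sglt2_DOCA library). Tgfb1 and Tgfbi have points on both sides of 0, while Tgfbr1 stays between 0.22 and 0.40 and Ltbp1 between -0.39 and -0.22.

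The other genes of the pathway were described in 6 lists with 117 measured members, of which 4 passed in limma, 2 higher and 2 lower. Over all genes 2.22% passed, 0.627% higher and 1.59% lower. Of the 4 calls, the BMP, activin and GDF list held 1 higher and 2 lower, and the TGF-beta induced list 1 higher, too few to compare the lists. An unadjusted limma p under 0.05 was found for 11 of 26 and 10 of 35 genes of these lists, beside 21.1% of all genes. In the other lists, in the order given below, it was found for 4 of 19, 1 of 13, 1 of 6 and 5 of 18. No list was tested as a set. Of the 19 genes of latency and activation, 0 passed; 7 had positive and 12 negative differences, with a median of -0.05. The smallest p belonged to Ltbp4, a matrix protein that binds latent Tgfb1 (2559 ± 574 against 1593 ± 113 normalized counts, log2 difference -0.53, limma adjusted p = 0.0722). Lrrc32, which docks latent TGF-beta on the cell surface, had a log2 difference of 0.52 (limma adjusted p = 0.116). The integrin subunit genes Itgav and Itgb6, whose products together release active TGF-beta at epithelia, had 0.30 and -0.47, with limma adjusted p of 0.155 and 0.209.

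Of the 13 measured co-receptors and other receptors of the family, 0 passed and 9 had positive differences, with a median of 0.06. Bambi, a decoy receptor without a kinase, had a log2 difference of -0.14 (limma adjusted p = 0.196), and the receptors Bmpr2, Acvr1b and Tgfbr3 had 0.19, 0.14 and 0.20. All 6 other SMAD genes had positive differences, with a median of 0.12, and 0 passed. Smad9, a transducer of BMP signals, had 0.16 (limma adjusted p = 0.214), Smad5, also of the BMP branch, 0.13, the shared partner Smad4 0.15 and Smad2 0.11. Of the 18 SMAD partners and brakes, 0 passed and 14 had positive differences, with a median of 0.08. The ubiquitin ligase genes Nedd4l and Wwp1 had opposite signs, 0.31 and -0.47 (limma adjusted p = 0.102 and 0.103). The corepressor gene Tgif1 had 0.25 and the ubiquitin ligase gene Smurf1 0.22, with limma adjusted p of 0.153 and 0.213. Beside these shares, 47.9% of all genes had a positive difference.

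Of the 35 genes listed here as TGF-beta induced, Lox rose and 0 fell, with 16 positive differences and a median of -0.02. Whether TGF-beta induces each of them in these kidneys was not measured. Lox, which crosslinks collagen, had 754, 436, 831, 892 and 754 normalized counts in the controls and 1489, 1385 and 1753 in the Arhgef11Sglt2_DOCA libraries. No library overlapped, and the mean was 2.10-fold higher (log2 difference 0.76, SE 0.13, limma adjusted p = 0.0253). The call was lost without control replicate 4 (adjusted p = 0.0573), control replicate 5 (0.0640) or Arhgef11Sglt2_DOCA replicate 3 (0.106). Cdkn1a, which halts the cell cycle, had a log2 difference of 0.63 (limma adjusted p = 0.0546). Id3, an inhibitor of transcription factors, had 0.45, and Ccn2, a matrix-associated growth factor, 0.59, with limma adjusted p of 0.116 and 0.118.

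Of the 26 measured BMP, activin and GDF ligands and antagonists, Gdf15 rose, Kcp and Gdf10 fell, and the median was 0.07. Kcp, a secreted protein known to enhance BMP and restrain TGF-beta signalling, had 561, 692, 567, 614 and 502 normalized counts in the controls and 301, 340.0 and 246 in the Arhgef11Sglt2_DOCA libraries. The groups were far apart, and the mean was 1.99-fold lower (log2 difference -0.52, SE 0.08, limma adjusted p = 0.0178). Gdf10, a ligand related to Bmp3, had 427, 442, 343, 509.5 and 418 in the controls and 243, 179.8 and 200.4 in the Arhgef11Sglt2_DOCA libraries, 2.06-fold lower (log2 difference -0.48, SE 0.08, limma adjusted p = 0.02). Gdf15, a stress-induced member of the family, had 382, 175, 339, 337 and 221 in the controls and 606, 653 and 1199 in the Arhgef11Sglt2_DOCA libraries, 2.82-fold higher (log2 difference 0.81, SE 0.16, limma adjusted p = 0.0401). Nbl1, a BMP antagonist, had a log2 difference of 0.34 (limma adjusted p = 0.0518). The Kcp call was lost without control replicate 4 (adjusted p = 0.0573) or Arhgef11Sglt2_DOCA replicate 3 (0.0659). That of Gdf10 was lost without control replicate 4 (0.0573), control replicate 5 (0.0535) or Arhgef11Sglt2_DOCA replicate 3 (0.0704). That of Gdf15 was lost without any 1 control (0.0547 to 0.0921) and without Arhgef11Sglt2_DOCA replicate 3 (0.106).

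**Figure D5:**
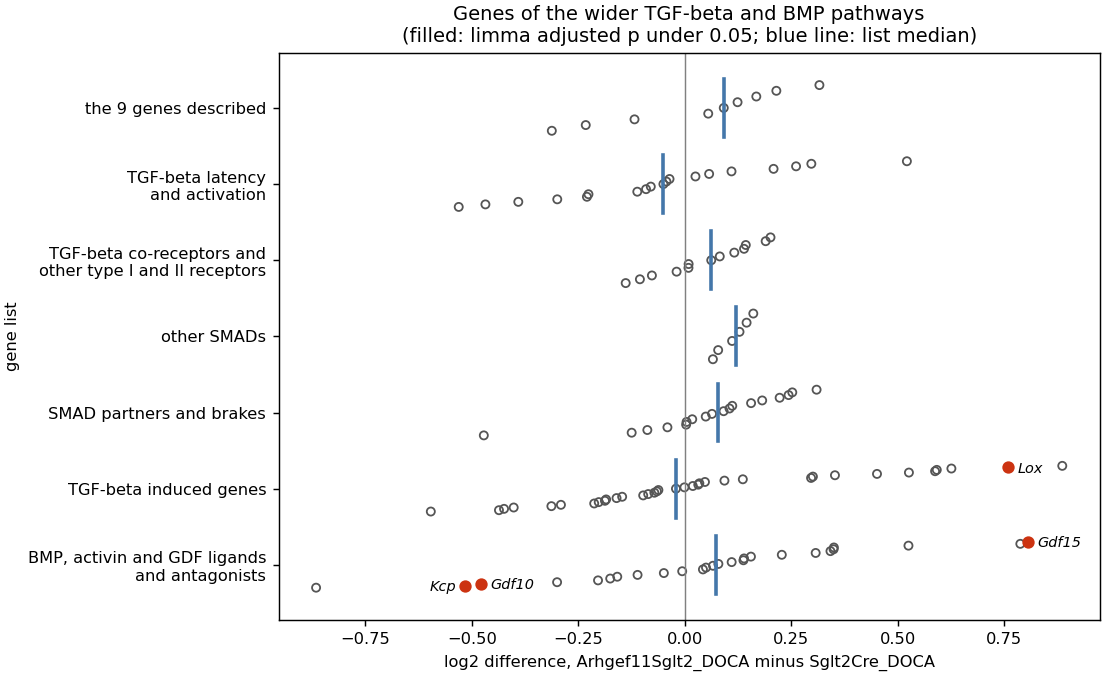
Log2 difference of every measured gene (points; x axis, Arhgef11Sglt2_DOCA minus Sglt2Cre_DOCA) in the 9 genes described and 6 lists of the wider pathway (y axis), filled where the limma adjusted p is under 0.05, with the list median as a blue line. The 4 filled points are Lox, Gdf15, Kcp and Gdf10, and no point of the 9 genes is filled.

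The genes with the profiles most like those of 3 members on the deposited scale were sought among 12678 genes with a mean of at least 100 normalized counts. The measure was the root mean square difference between mean-centred log2 values over the 8 libraries. That scale compresses differences of genes with low counts, so genes of unlike level can look more alike than their counts are. For Tgfbr1, whose own values varied by 0.20 about their mean, these were Foxp4 (0.047), Fam83h (0.055) and Camk2n2 (0.055). For Tgfb2, which varied by 0.25, they were Slamf7 (0.090), Adgre5 (0.10) and Adam19 (0.11). For Smad7, which varied by 0.12, they were Nbeal1 (0.027), Aen (0.042) and Gpatch4 (0.045). As log2(normalized count + 1), the group difference was 0.35 for Tgfbr1, 0.42 for Foxp4, 0.42 for Fam83h and 0.86 for Camk2n2. It was -0.54 for Tgfb2, -0.77 for Slamf7, -0.29 for Adgre5 and -0.25 for Adam19. For Smad7 it was 0.23, beside 0.18 for Nbeal1, 0.24 for Aen and 0.40 for Gpatch4.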

How the data were processed

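Kidney messenger RNA of 8 samples was measured by stranded, paired-end sequencing, per the labels' protocols. The authors deposited 1 table of 15948 genes. The submitters' processing notes name GRCm39, Salmon 1.10.0 and DESeq2; what annotation or gene filter they applied is not stated there. The deposited values are log2 values on a variance-stabilized scale, read from the values: all columns share a minimum of 8.13 (linear 279.7), taken as a zero count. Inverting the transformation's closed form from it gave normalized counts. Low values lay on a step in only 31.4% to 54.4% of cases (within 0.02 steps), so read counts were not recovered, no count model was used, and depth is an estimate.

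limma 3.58.1 (R 4.3.3) fitted group alone to all genes, with prior variances that follow the mean. P-values were adjusted by Benjamini-Hochberg over 15948 genes, with calls at 0.05 and 6 residual degrees of freedom. The procedure was tested on simulated data. Symbols matched 15902 identifiers (99.7%). The genes, lists and tests were chosen with earlier results of these data known. Named genes are the 9 members, Arhgef11, Slc5a2, and in each list those called and up to 4 with the smallest p. The 3 nearest profiles of the ligand, the receptor and the remaining member with the smallest p are named too. Markers serve as checks. Of these, the markers given by name, other than Slc5a2, were named after their values were seen. Alternatives covered the filter, log scale, scaling, blocks, variance model, weights, threshold and each library left out; leaving out control replicate 2 and Arhgef11Sglt2_DOCA replicate 3 together was added after seeing the data.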

Additional observations from a re-analysis of the deposited data

Results flagged for a closer look

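Among the control libraries of 44 genes checked, 2 genes had 1 library apart from the other 4 by Dixon's criterion, which chance meets in about 1 in 20 groups. For Ccn2, control replicate 2 had 2265 normalized counts against 3574 to 3969 in the other controls, a gap of 0.768 of the range. For Wwp1, control replicate 1 was low, at 6198 normalized counts against 8971 to 9957 in the other controls, a gap of 0.738 of the range; without it Wwp1 passed in limma (log2 difference -0.58, adjusted p = 0.0259).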

How the results depend on the processing

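None of the 9 genes passed in limma under any of the 21 alternatives, an adjusted threshold of 0.10 included; at an unadjusted p under 0.05 the count was 0 with array weights and up to 4 without control replicate 5. Directions of Tgfb2, Tgfb3, Tgfbr1, Tgfbr2, Smad3, Smad7 and Ltbp1 held in all 20 alternatives with a value. Tgfb1 turned to -0.029 with array weights and ran from -0.068 to 0.14 with 1 library left out, Tgfbi from -0.0026 to 0.16, and Arhgef11 from -0.10 to 0.079, with 0.027 under array weights. The count over all genes was 24 to 1334 with 1 library left out (24, 76, 135 and 187 without control replicate 4, 5, 3 and 1, and 1334 and 45 without Arhgef11Sglt2_DOCA replicate 1 and 3), 874 with array weights, 1038 at 0.10 and 81 without control replicate 2 and Arhgef11Sglt2_DOCA replicate 3; the cause was not tested. The BMP list's median was 0.24 and 0.22 with pseudocounts of 1 and 10, 0.28 with equal totals, 0.015 with array weights, 0.019 to 0.13 with 1 library left out and 0.027 without those 2 libraries. Without them the median was also 0.013 for SMAD partners, 0.024 for other SMADs and -0.031 for co-receptors; with equal totals it was 0.14 for SMAD partners.

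The replicate numbers do not pair the libraries: same-numbered deviations had correlations of -0.18, -0.09 and -0.0068, and no library correlated best with its own number. With the replicate block limma called 0 genes (2166 at an unadjusted p under 0.05), and Adam19 turned to 0.040. The limit that depth sets on each gene was not tested.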
